A study of Homo sapiens with 4 samples.

Results

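The genes described here encode 9 enzymes that crosslink the extracellular matrix or prepare its collagen for crosslinking: TGM2, LOX, LOXL1, LOXL2, LOXL4, P4HA1, P4HA2, PLOD1 and PLOD2. They were taken by symbol from the 59409 gene symbols measured, and all 9 were found. The 9 were chosen by their measured TPM in this same comparison, around the high TGM2 level in DEK knockout cells, so their differences between knockout and control are given as a description without a test. The libraries were mRNA libraries of 786-O, a human line from a clear cell renal carcinoma in which VHL, the tumour suppressor that marks hypoxia-inducible factors for degradation, is inactive. There were 2 libraries from DEK knockout cells, for which a Cas9-expressing 786-O clone had received guides against DEK by lentivirus and was sorted as single cells. The 2 control libraries are labelled as negative control, with a WT genotype, and their descriptions name Cas9. The labels name neither the knockout clone nor the culture behind a library, so a p-value speaks of the variation among 4 libraries, part or all of which may be technical.

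Tissue transglutaminase, the product of TGM2, joins glutamine and lysine side chains of proteins in a calcium-dependent reaction and also binds fibronectin and integrins at the cell surface. The lysyl oxidase family (LOX and the LOXL enzymes) uses copper to oxidise lysines of collagen and elastin, which then crosslink outside the cell. Before secretion, prolyl 4-hydroxylase, built of P4HA alpha subunits and the P4HB beta subunit, hydroxylates collagen prolines and so stabilises the triple helix, and lysyl hydroxylases (PLOD) hydroxylate the lysines that later crosslink. These hydroxylases need iron, oxygen and ascorbate, and several of the genes, among them P4HA1, P4HA2, PLOD2, LOX and LOXL2, are known as targets of the hypoxia-inducible factors, which stay active in cells without VHL.

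The promoters of both hydroxylase pairs are shown because the paralogues of each pair differed in the knockout, P4HA2 and PLOD1 being higher than in the controls while the values of P4HA1 and PLOD2 overlapped with theirs. For the PLOD pair this order depends on base composition, since with each library's trend on GC content removed the log2 difference was 0.43 for PLOD2 and 0.30 for PLOD1. Sequences are from RefSeq on GRCh38.p14, 250 bases before the start on the strand of the gene, and capitals mark the core of the hypoxia response element, ACGTG or GCGTG, on either strand. P4HA2 is at chr5:132227092-132227341 on the minus strand, P4HA1 at chr10:73096867-73097116 on the minus strand, PLOD1 at chr1:11934467-11934716 on the plus strand and PLOD2 at chr3:146161185-146161434 on the minus strand.
P4HA2: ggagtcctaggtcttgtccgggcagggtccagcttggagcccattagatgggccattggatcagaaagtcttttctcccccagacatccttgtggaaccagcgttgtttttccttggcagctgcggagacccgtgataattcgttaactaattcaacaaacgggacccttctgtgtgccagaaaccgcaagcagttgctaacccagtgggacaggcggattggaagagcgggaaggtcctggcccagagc
P4HA1: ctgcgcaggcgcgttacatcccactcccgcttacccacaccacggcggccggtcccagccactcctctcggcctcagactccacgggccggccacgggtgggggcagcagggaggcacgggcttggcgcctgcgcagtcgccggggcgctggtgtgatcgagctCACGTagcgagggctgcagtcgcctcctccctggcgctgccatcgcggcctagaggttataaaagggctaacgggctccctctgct
PLOD1: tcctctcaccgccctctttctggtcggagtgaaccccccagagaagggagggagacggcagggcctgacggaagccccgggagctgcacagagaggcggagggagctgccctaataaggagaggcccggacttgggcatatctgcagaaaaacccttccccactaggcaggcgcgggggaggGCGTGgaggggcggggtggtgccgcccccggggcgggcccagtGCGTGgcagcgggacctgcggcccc
PLOD2: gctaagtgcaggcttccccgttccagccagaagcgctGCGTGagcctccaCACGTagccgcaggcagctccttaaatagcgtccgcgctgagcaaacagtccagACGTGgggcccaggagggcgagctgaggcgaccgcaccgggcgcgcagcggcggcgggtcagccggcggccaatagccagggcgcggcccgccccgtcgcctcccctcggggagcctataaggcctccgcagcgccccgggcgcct
Here the PLOD2 stretch held 3 cores, that of PLOD1 2, that of P4HA1 1 and that of P4HA2 0. In windows of 300 bases, from 250 before to 50 after the start, searched on both strands with overlapping matches counted, ACGTG was present in 21.4% and GCGTG in 36.5% of 35116 windows of all genes. Within its window LOX, which was close to undetected, held 4 ACGTG matches. The AP-1 motif TGANTCA (7.71% of all windows) and the nuclear receptor motif AGGTCA (13.8%) had 0 matches in the 7 members with a window. TGM2 and LOXL2 had no window, so their promoters were not searched for any motif. Of the other motifs searched, TATAAA (11.5%) was found in P4HA1 alone of the 7, and GGGCGG (45.0%) in PLOD1, PLOD2, LOX and LOXL4. The annotated genes P4HA2, P4HA1, PLOD1 and PLOD2 each reach upstream of the RefSeq start used here. Which start is used in these cells is not known from gene-level values. A match is a run of letters and not evidence of binding, and a window without one says nothing about the factor.

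Values are TPM, read counts per gene length scaled to 1000000 in each library, so they compare genes within a library and are relative to all other RNA in it. An estimate from the steps between low values put the depth at 35.8 and 40.1 M reads in the knockouts and 38.9 and 39.6 M reads in the controls, M standing for 1000000. The mRNA of DEK, a chromatin-associated histone chaperone, was at 31.4 and 15.7 TPM in the knockouts and 95.02 and 76.3 TPM in the controls (limma adjusted p = 0.030). Of 10 renal and renal carcinoma markers 9 reached 1 TPM, while 0 of 5 endothelial and 0 of 5 leukocyte markers did. The renal list summed to 10139 to 10297 TPM in the knockouts and 9129 to 9325 TPM in the controls. Most of each sum was VIM, at 8046 and 8346 TPM in the knockouts and 7352 and 7215 TPM in the controls. Of 7 fibroblast and pericyte markers 3 reached 1 TPM (PDGFRB, COL1A1 and RGS5), and PDGFRA and COL3A1 were at 0 throughout. The 7 summed to 3.59 to 4.38 TPM in the knockouts and 4.28 to 4.78 TPM in the controls. As in any bulk sample, fewer cells of a type and less RNA per cell cannot be told apart. Among 15815 tested genes, those that reached 1 TPM in 2 or more libraries, 17.7% passed the threshold (limma, Benjamini-Hochberg adjusted p under 0.05), with 9.06% higher and 8.67% lower in the knockout. The number called depended on the libraries used: with all of them 1433 genes were higher and 1371 lower. More genes passed without knockout 1 and fewer without either control. Each such fit leaves 1 library in a group, so the spread is estimated from the other group and nothing is read from its counts.

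TGM2 was among the most abundant mRNAs of the knockout cells and of modest level in the controls. Its level was 605 TPM in knockout 1 and 922 TPM in knockout 2, against 20.9 TPM in control 1 and 20.04 TPM in control 2. By TPM it was the 197th and 120th most abundant gene in the knockouts and the 6166th and 6138th in the controls, of 59409. Both knockouts lay far above both controls, which were nearly equal, while the knockouts differed from each other by 0.61 on the log2(TPM + 1) scale. Of all tested genes 10.7% had a wider gap between the knockouts. The log2 difference was 5.12 (SE 0.21), and 1 tested gene had a larger one. The TGM2 locus spans bases 38127387 to 38166578 of chromosome 20, on the minus strand (GRCh38, GENCODE 29), and overlaps RPRD1B on the opposite strand, which was at 36.1 and 38.9 TPM in the knockouts and 34.2 and 31.6 TPM in the controls (limma adjusted p = 0.21).

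**Figure D1:**
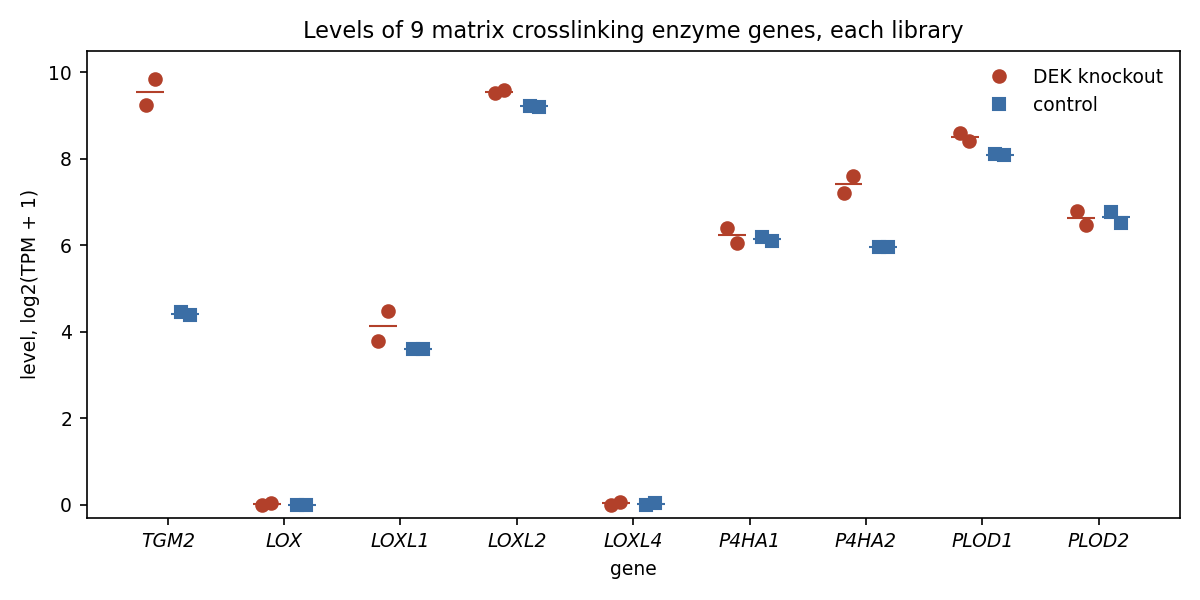
Level of each of the 9 genes, as log2(TPM + 1), in the 2 DEK knockout libraries (circles) and the 2 control libraries (squares), with horizontal lines at group means. TGM2 stands at 605 and 922 TPM in the knockouts against 20.9 and 20.04 TPM in the controls, and LOX and LOXL4 lie at or near 0 in all 4 libraries.

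TGM2 was the transglutaminase of these cells in either group. All 9 other members of the family (TGM1, TGM3, TGM4, TGM5, TGM6, TGM7, the coagulation factor genes F13A1 and F13B, and the erythrocyte protein gene EPB42) were below the filter on low values. The highest value among them in any library was 1.04 TPM, for TGM1 in control 1. TGM5 was at 0.301 and 0.402 TPM in the knockouts and 0.103 and 0.0998 TPM in the controls. TGM3, TGM6, F13B and EPB42 were listed at 0 in all 4 libraries.

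The lysyl oxidases were represented by LOXL2. LOXL2, which oxidises collagen lysines and is known for its role in basement membrane collagen, was at 731 and 766 TPM in the knockouts and 595 and 590 TPM in the controls. Both knockouts were above both controls, by a log2 difference of 0.34 (SE 0.06) and a ratio of mean TPM of 1.26. It made up 98.3% and 97.3% of the summed TPM of the 4 lysyl oxidase genes in the knockouts and 98.2% and 98.1% in the controls. The gene lies on chromosome 8 (23297189 to 23425328, minus strand) and overlaps ENTPD4 on the same strand.

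LOXL1, which acts on elastin, was at 12.8 TPM in knockout 1 and 21.4 TPM in knockout 2, against 11.2 TPM in each control. The controls were almost identical and knockout 1 was barely above them, so most of its log2 difference of 0.53 (SE 0.25) came from knockout 2, and it was 0.18 without knockout 2. LOXL1 (chromosome 15, 73925989 to 73952137, plus strand) overlaps LOXL1-AS1 on the opposite strand, and the use of strand in counting is not known. LOX, the founding member of the family (chromosome 5, 122063195 to 122078360, minus strand), was at 0.0362 TPM in knockout 2, about 2 reads, and at 0 in knockout 1 and both controls. LOXL4 (chromosome 10, 98247690 to 98268250, minus strand) was at 0 and 0.0534 TPM in the knockouts and 0 and 0.0265 TPM in the controls, at most about 2 reads. A count of 0 allows up to 3 reads, which is 0.0515 to 0.0583 TPM for LOX and 0.0783 to 0.0885 TPM for LOXL4 across the libraries, for counting error only. A difference in either gene was not detectable at this depth.

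The alpha subunits of prolyl 4-hydroxylase diverged. P4HA2 was at 147 and 195 TPM in the knockouts, against 61.03 and 60.9 TPM in the controls, with both knockouts far above controls that were nearly equal. Its mean was 171 ± 33.4 TPM in the knockouts and 60.98 ± 0.0702 TPM in the controls (SD, n = 2 each), a ratio of 2.80 and a log2 difference of 1.46 (SE 0.14). P4HA1, the other alpha subunit, was at 83.9 and 65.6 TPM in the knockouts and 72.6 and 67.9 TPM in the controls. Here knockout 1 was the highest and knockout 2 the lowest of the 4 libraries, so the groups overlapped, with a log2 difference of 0.08 (SE 0.14). The share of P4HA2 in the sum of both subunits was 63.7% and 74.8% in the knockouts and 45.7% and 47.3% in the controls, so the order of the paralogues turned round. P4HA2 (chromosome 5, 132191838 to 132295315, minus strand) overlaps SLC22A4, PDLIM4 and noncoding genes on the opposite strand, and P4HA1 lies on chromosome 10 (73007217 to 73096974, minus strand).

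Of the lysyl hydroxylases PLOD1 was higher in the knockouts and PLOD2 overlapped with the controls. PLOD1, which hydroxylates lysines in the helical part of collagen, was at 389 and 338 TPM in the knockouts, against 277 and 270.1 TPM in the controls. Both knockouts were above both controls, by a log2 difference of 0.41 (SE 0.09). PLOD2, which hydroxylates lysines of the collagen telopeptides, was at 110.2 and 88.4 TPM in the knockouts and 108 and 91.1 TPM in the controls. In either group the library numbered 1 was the higher, and both controls lay within the range of the knockouts (log2 difference -0.01, SE 0.14). The ratio of PLOD1 to PLOD2 was 3.53 and 3.82 in the knockouts and 2.56 and 2.97 in the controls. With the GC trend removed PLOD2 differed by more than PLOD1 (0.43 against 0.30 on the log2 scale), so the direction of this ratio turns with that setting. PLOD1 lies on chromosome 1 (11934205 to 11975538, plus strand) and PLOD2 on chromosome 3 (146069440 to 146163653, minus strand).

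**Figure D2:**
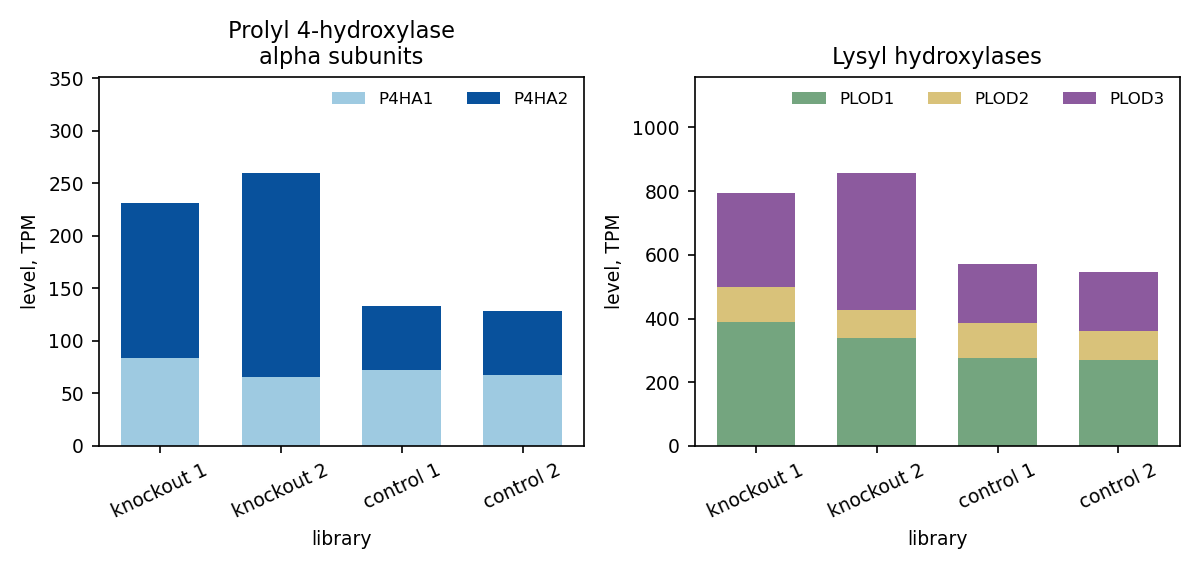
Stacked levels in TPM of the prolyl 4-hydroxylase alpha subunits (left) and of the lysyl hydroxylases (right), with 1 bar for each knockout and control library. P4HA2 makes up 63.7% and 74.8% of the alpha subunit bars in the knockouts against 45.7% and 47.3% in the controls, while the PLOD2 segment differs little between the groups.

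Of the 9 genes, 5 had both knockouts above both controls (TGM2, LOXL1, LOXL2, P4HA2 and PLOD1), 4 overlapped between the groups and 0 had both knockouts below. Over all tested genes 29.2% had both knockouts above and 39% both below the controls, 68.3% in all. Among the 7 that passed the filter on low values 4 were past the threshold of the fit over all genes, TGM2, LOXL2, P4HA2 and PLOD1, all higher, against 9.06% of all tested genes higher. Since the set was drawn up with this comparison known, nothing is read from these counts. The median log2 difference over all 9 genes was 0.34, against -0.06 over all tested genes. Summed over the 9 genes the level was 2080 and 2396 TPM in the knockouts, against 1145 and 1111 TPM in the controls. TGM2 made up 29.1% and 38.5% of the sum in the knockouts and 1.83% and 1.80% in the controls. Without TGM2 the sum was 1474 TPM in each knockout and 1124 and 1091 TPM in the controls.

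In the order of levels, TGM2 came first in the knockouts with 763 ± 224 TPM (SD, n = 2), but its libraries lay on either side of those of LOXL2 (749 ± 24.7 TPM), so these neighbours do not differ beyond their spread. PLOD1, P4HA2, PLOD2, P4HA1 and LOXL1 followed, each with library values separate from the next. In the controls the order was LOXL2, PLOD1, PLOD2, P4HA1, P4HA2, TGM2 and LOXL1, again with separate values between neighbours. LOX and LOXL4 were last and overlapped in both groups.

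The knockout libraries were not alike across the genes. Knockout 2 was the higher for TGM2, LOXL1, P4HA2 and, slightly, LOXL2, with log2 gaps of 0.61, 0.70, 0.40 and 0.07. Knockout 1 was the higher for P4HA1, PLOD1 and PLOD2, with gaps (knockout 2 minus knockout 1) of -0.35, -0.20 and -0.31. Chromosome medians of this gap ran from -0.17, for chromosome 1, which holds PLOD1, to 0.21, for chromosome 7. Between the controls (control 2 minus control 1) they ran from -0.07 to 0.12. The part of the chromosome in the PLOD1 gap was not tested. For comparison the median size of the gap over all tested genes was 0.19 between the knockouts and 0.10 between the controls. Base composition moved with some of these values: the transcripts of PLOD2 and P4HA1 are the poorest in GC of the 7, at 34.4% and 40.8%. With each library's trend on GC content removed, the log2 difference was 0.43 for PLOD2 and 0.32 for P4HA1, so that for PLOD2 its direction turned. It was 5.05 for TGM2, 1.45 for P4HA2, 0.39 for LOXL1, 0.30 for PLOD1 and 0.24 for LOXL2. P4HA1 was also at -0.10 without knockout 1 and at 0.25 without knockout 2, so it has no stable direction in these libraries.

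**Figure D3:**
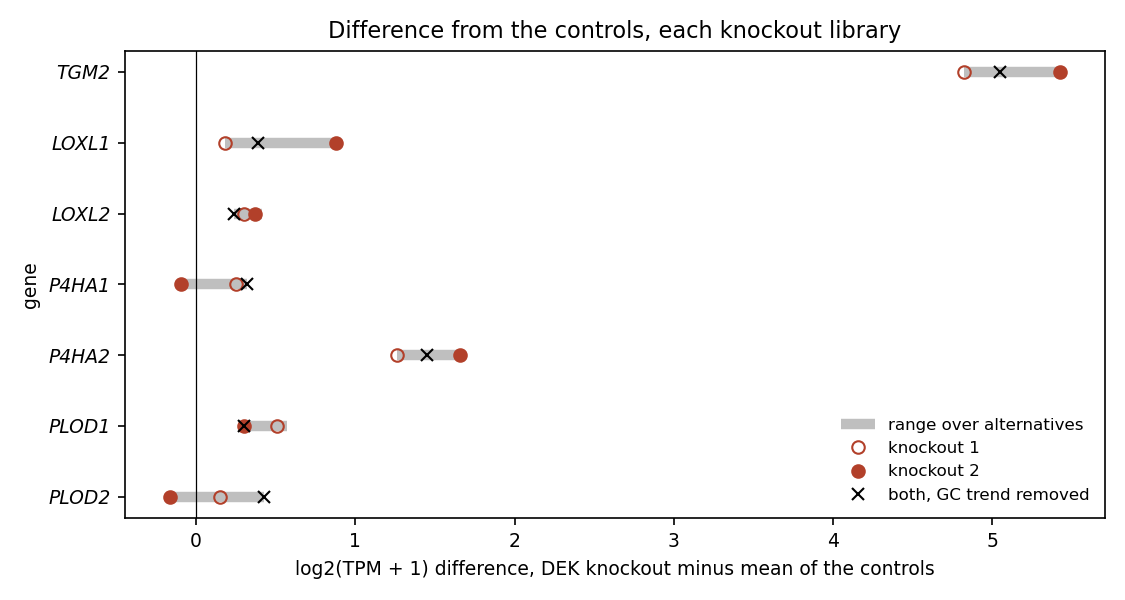
Difference in log2(TPM + 1) from the mean of the controls for knockout 1 (open circles) and knockout 2 (filled circles), for the 7 genes that passed the filter. Grey bars span all alternative settings and crosses show both knockouts with the GC trend removed, at 5.05 for TGM2, 1.45 for P4HA2 and 0.43 for PLOD2.

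The genes around each locus were set beside it, with 9.06% of all tested genes higher and 8.67% lower for comparison. Within 1 Mb of TGM2, 11 protein-coding genes were tested; 3 of them rose and 0 fell (2 at an unadjusted p under 0.05, ACTR5 and FAM83D), and their median log2 difference was 0.07, against 0.02 for the 425 tested genes of chromosome 20. Those that rose were RPN2, a subunit of oligosaccharyltransferase (log2 difference 0.36, adjusted p = 0.024), the tyrosine kinase gene SRC (0.72, adjusted p = 0.026) and BLCAP (0.59, adjusted p = 0.017). All 3 start on the same side of TGM2, at -949, -783 and -635 kb from its lowest coordinate. MANBAL, between RPN2 and SRC at -838 kb, had a log2 difference of -0.002 (limma adjusted p = 0.98). CTNNBL1, TTI1, RPRD1B and RALGAPB, which lie closer to TGM2, did not pass the test either (limma, Benjamini-Hochberg). The TGM2 difference of 5.12 thus exceeded that of every tested neighbour, the highest of which was 0.72.

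**Figure D4:**
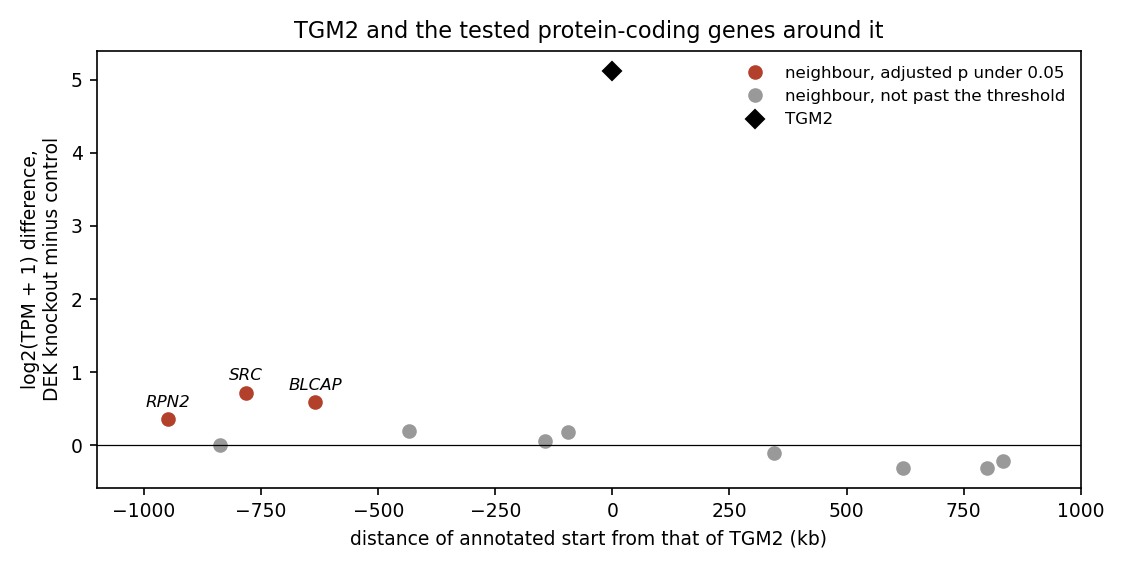
Difference in log2(TPM + 1), DEK knockout minus control, of TGM2 and the 11 tested protein-coding genes within 1 Mb, against the distance of their annotated start (lowest coordinate) from that of TGM2 in kb. TGM2 stands at 5.12, and the neighbours lie between -0.31 and 0.72.

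Around LOXL2 the neighbours' median was close to the difference of LOXL2 itself. Within 1 Mb 5 of 16 tested genes rose and 0 fell (1 at an unadjusted p under 0.05, TNFRSF10D), against 9.06% higher and 8.67% lower over all tested genes. The median log2 difference was 0.37 beside 0.34 for LOXL2, while the median of chromosome 8 was -0.08. The genes that rose, named after their values were seen, were the death receptor genes TNFRSF10A and TNFRSF10B, SORBS3, PDLIM2 and SLC25A37. The part of the locus as a whole in the LOXL2 difference was not tested. Near P4HA2 16 genes were tested, with 2 rising and 1 falling and a median of -0.18. CSF2, the gene of the cytokine GM-CSF, 118 kb away, rose by a log2 difference of 4.07 (adjusted p = 0.016), SLC22A4 rose by 1.38 (adjusted p = 0.042) and the chaperone gene HSPA4 fell by 0.40 on the log2 scale (adjusted p = 0.040), all named after their values were seen. CSF2 was at 18.5 and 48.8 TPM in the knockouts and 1.003 and 0.726 TPM in the controls, there about 8 and 6 reads. Its controls alone would not have passed the filter. The annotated start of SLC22A4 at base 132294443 lies within P4HA2, which reaches to 132295315, so without stated strand use reads in that short overlap cannot be assigned to either gene.

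For comparison 9.06% of all tested genes were higher and 8.67% lower. Around LOXL1 6 of 17 tested neighbours rose and 0 fell, also at an unadjusted p under 0.05. Their median log2 difference was 0.26, against -0.03 for chromosome 15, and the highest was 2.14, for the semaphorin gene SEMA7A (adjusted p = 0.023). Of the 6 that rose, STRA6 was at 1.87 and 1.39 TPM in the knockouts and 0.253 and 0.175 TPM in the controls. It passed the filter through the knockout libraries alone, so that it had to differ. Near P4HA1 the median of the tested neighbours was -0.16. Near LOXL4 MORN4 rose and PGAM1, ZDHHC16, ANKRD2 and HOGA1 fell, of 18 tested, at a median of -0.07. TARDBP fell among 17 tested neighbours of PLOD1 (median -0.18), where limma called 0 higher (1 at an unadjusted p under 0.05). PLSCR1 rose and PLSCR4 did not pass beside PLOD2, the 2 tested there. None of the 4 tested near LOX passed (1 at an unadjusted p under 0.05, SNX2). These genes were named after their values were seen.

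Among the remaining enzymes that modify collagen 4 of 10 that were tested rose and 1 fell, at a median log2 difference of 0.41, against -0.06 for all tested genes and 9.06% of them higher. P4HB, the beta subunit that pairs with P4HA1 or P4HA2 and is far more abundant than either, was at 1388 and 1424 TPM in the knockouts and 1061 and 1039 TPM in the controls (log2 difference 0.42, limma adjusted p = 0.019). The ratio of P4HB to the summed alpha subunits averaged 5.74 ± 0.375 in the knockouts and 8.003 ± 0.0959 in the controls (SD, n = 2 each). P3H4, a partner of the lysyl hydroxylase complex of the endoplasmic reticulum, rose to 65.1 and 78.8 TPM, against 28.5 TPM in each control (log2 difference 1.30, adjusted p = 0.013). P3H3, a prolyl 3-hydroxylase family member, rose by 0.39 (adjusted p = 0.026). PLOD3, the third lysyl hydroxylase, also with glycosyltransferase activity and named here after its values were seen, rose to 294 and 432 TPM, against 185 and 184 TPM in the controls (log2 difference 0.95, adjusted p = 0.037). Its log2 gap, knockout 2 minus knockout 1, was 0.55, where the median gap of its chromosome 7 was 0.21. P3H2, a prolyl 3-hydroxylase of basement membrane collagen, fell to 69.6 and 70.2 TPM, against 121 and 123 TPM in the controls (log2 difference -0.79, adjusted p = 0.011). LOXL3, the remaining lysyl oxidase, was at 1.93 and 2.75 TPM in the knockouts and 1.47 and 0.975 TPM in the controls (adjusted p = 0.14).

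Among collagen chaperones and enzymes of procollagen processing 4 of 12 that were tested rose and 0 fell (2 at an unadjusted p under 0.05, FKBP14 and ADAMTS3). This compares with 9.06% higher and 8.67% lower over all tested genes. The median log2 difference of the list was 0.47. FKBP10, a collagen chaperone required for telopeptide lysine hydroxylation, was at 555 and 680 TPM in the knockouts, against 278 and 265 TPM in the controls (log2 difference 1.17, SE 0.11, adjusted p = 0.014). Its gene and P3H4 lie next to each other on chromosome 17, at 41812680 to 41823217 and 41801947 to 41812604, on opposite strands. PPIB, a prolyl isomerase, rose by 0.46 (adjusted p = 0.021). BMP1, which cleaves procollagen C-propeptides and also activates pro-lysyl oxidase, rose by 0.48 (adjusted p = 0.025), and ADAMTS2, which cleaves N-propeptides, by 0.78 (adjusted p = 0.041). SERPINH1, the collagen chaperone HSP47, was at 75.6 and 71.5 TPM in the knockouts and 66.04 and 63.3 TPM in the controls and did not pass (adjusted p = 0.15). Without knockout 2 the median of this list was 0.22.

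Fibrillar collagen, the main substrate of these enzymes in connective tissue, was scarcely expressed. COL1A1 was at 2.33 and 1.48 TPM in the knockouts and 1.59 and 1.60 TPM in the controls, and COL3A1 was listed at 0 throughout. Of the fibrillar and basement membrane collagens listed, the basement membrane chains COL4A1 and COL4A2 were the most abundant, and other collagen types were not examined. COL4A2 was at 164.5 and 149.8 TPM in the knockouts and 124 and 123 TPM in the controls (log2 difference 0.34, adjusted p = 0.044), and its partner COL4A1 at 172 and 134 TPM in the knockouts and 185 and 180.5 TPM in the controls (adjusted p = 0.20). COL4A2, which overlaps COL4A1 on the opposite strand, was the gene of 7 tested collagens that rose, against 9.06% of all tested genes. Of the collagens 0 fell (1 at an unadjusted p under 0.05, COL11A1). The list median was -0.22, but 0.05 without knockout 2 and 0.02 with no filter on low values, so the collagens had no stable direction. The COL4A2 call was lost with the GC trend removed, where its log2 difference was 0.23 (adjusted p = 0.16), without the trend in the variance prior (adjusted p = 0.10) and with no filter (adjusted p = 0.098). COL11A1 had the next smallest p, with 0.474 and 0.126 TPM in the knockouts and 1.28 and 1.10 TPM in the controls (adjusted p = 0.087), and passed the filter through the controls alone.

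Among elastic fibre and microfibril genes 5 of 7 tested genes rose and 0 fell, also at an unadjusted p under 0.05, at a median of 1.15, though 10 of the 17 listed genes, elastin (ELN) among them, were below the filter. Over all tested genes 9.06% were higher. LTBP3, which holds latent TGF-beta in the matrix, was at 140.3 and 118 TPM in the knockouts, against 40.3 and 40.2 TPM in the controls (log2 difference 1.65, SE 0.10, adjusted p = 0.0085). LTBP4, of the same family, rose to 55.8 and 53.4 TPM, against 24.95 and 23.3 TPM in the controls (adjusted p = 0.0097). FBN1, the microfibril protein fibrillin, rose to 17.8 and 16.6 TPM, against 6.43 and 6.33 TPM in the controls (log2 difference 1.30, adjusted p = 0.013). LTBP2 was low in every library, at 1.99 and 4.83 TPM in the knockouts and 0.0935 and 0.146 TPM in the controls (log2 difference 1.90, adjusted p = 0.035). FBLN1, named after its values were seen, rose at a similarly low level (log2 difference 0.96, adjusted p = 0.041). Both of these passed the filter through the knockout libraries alone, so that they had to differ, and with no filter on low values the list median was 0.26, below the 0.47 of the chaperones and the 0.34 of the collagen-modifying enzymes.

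Of 12 tested partners and substrates of TGM2 4 rose and 1 fell, against 9.06% higher and 8.67% lower over all tested genes. Their median log2 difference was 0.33. FN1, fibronectin, which binds TGM2 and is a substrate of it, rose to 5540 and 6127 TPM, against 3270 and 3168 TPM in the controls (log2 difference 0.86, adjusted p = 0.0125). ITGB3, an integrin beta subunit that associates with TGM2, rose to 87.6 and 92.6 TPM, against 28.2 and 27.96 TPM in the controls (log2 difference 1.65, SE 0.08, adjusted p = 0.0057). ITGA5, the alpha subunit of the fibronectin receptor, rose by 1.27 (adjusted p = 0.011) and LRP1, an endocytic receptor that takes up TGM2, by 1.01 (adjusted p = 0.011). SDC2, a heparan sulfate proteoglycan and named after its values were seen, fell to 25.3 and 15.5 TPM, against 47.03 and 44.1 TPM in the controls (adjusted p = 0.038). ITGB1 and SDC4, which also bind TGM2 or its complexes with fibronectin, differed by 0.08 (adjusted p = 0.37) and 0.03 (adjusted p = 0.77).

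**Figure D5:**
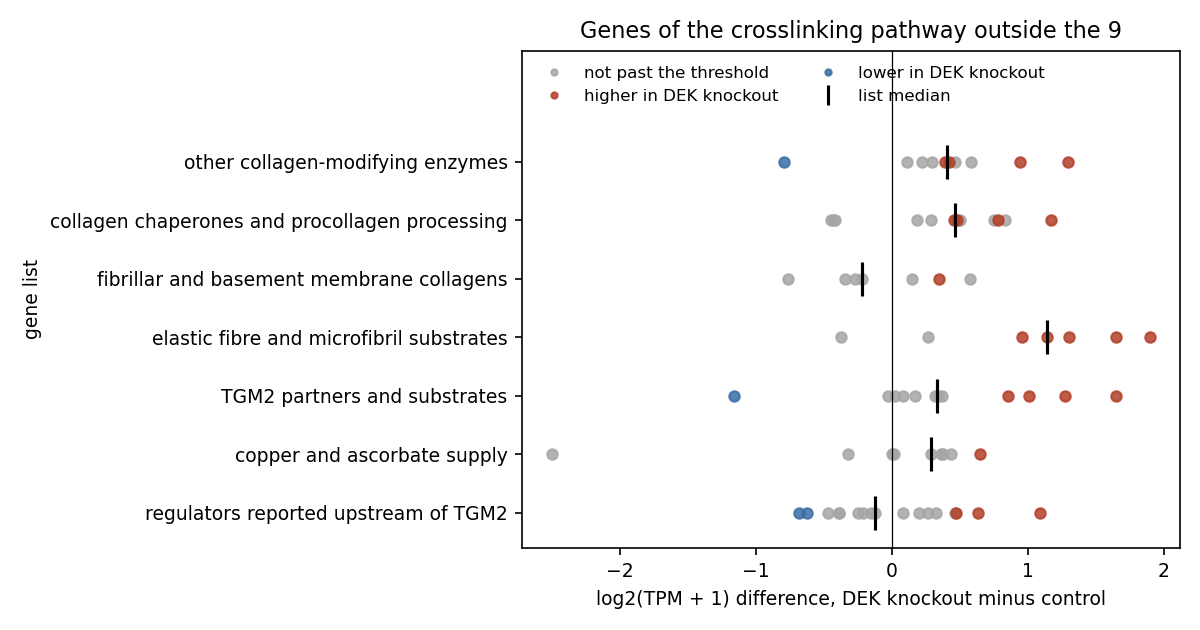
Difference in log2(TPM + 1), DEK knockout minus control, of every tested gene in 7 lists around crosslinking, 1 point a gene, coloured where the limma adjusted p is under 0.05, with list medians as vertical bars. The median is 1.15 for elastic fibre and microfibril genes and -0.22 for collagens.

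Cofactors come from genes of copper and ascorbate supply. Of these 1 of 9 rose, near the 9.06% of all tested genes that were higher, and 0 fell, 1 (SLC23A1) at an unadjusted p under 0.05. The median log2 difference was 0.29. GSTO1, a glutathione transferase that can reduce dehydroascorbate, rose to 186 and 220 TPM, against 126 and 131 TPM in the controls (log2 difference 0.65, adjusted p = 0.024). SLC23A1, an ascorbate transporter, had 3.88 and 0.374 TPM in the knockouts and 13.2 and 14.04 TPM in the controls, a log2 difference of -2.50 with widely separated knockouts that did not pass (adjusted p = 0.053). The SLC23A1 difference was -3.41 without knockout 1 and -1.59 without knockout 2, fits that hold none of the spread between the knockouts. It passed at -1.43 with a pseudocount of 5 (limma adjusted p = 0.030), with a mean of at least 5 TPM (limma adjusted p = 0.041) and with a replicate block. ATP7A, which loads copper onto secreted enzymes, was at 4.46 and 3.88 TPM in the knockouts and 5.49 and 5.39 TPM in the controls (adjusted p = 0.18).

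Regulators that have been placed upstream of TGM2 in other cells went both ways. Of 17 tested 3 rose and 2 fell, against 9.06% higher and 8.67% lower over all tested genes. The median log2 difference of the list was -0.13, but 0.11 with the GC trend removed and 0.15 without knockout 1. Neither of the 2 that fell passed with median ratio scaling, with quantile normalization or with the GC trend removed. TGFBR2, a TGF-beta receptor, rose to 47.3 and 66.04 TPM, against 25.03 and 26.5 TPM in the controls (log2 difference 1.09, adjusted p = 0.025), and SMAD3, a transducer of that pathway, rose by 0.63 (adjusted p = 0.017). RARG, a retinoic acid receptor named after its values were seen, rose by 0.47 (adjusted p = 0.0496), a call that was lost in 10 of 15 alternatives (adjusted p 0.026 to 0.29 over all of them). The ligand gene TGFB2 fell by 0.68 on the log2 scale (adjusted p = 0.048) and ARNT, the partner of HIF alpha subunits, by 0.62 (adjusted p = 0.044). With the GC trend removed TGFB2 was at -0.37 (adjusted p = 0.088), and over 15 alternatives the call was lost in 9 for TGFB2 and in 8 for ARNT. EPAS1, the HIF alpha subunit that is active in 786-O cells, was at 84.4 and 77.7 TPM in the knockouts and 67.3 and 66.9 TPM in the controls (adjusted p = 0.075). TGFB1 and RELA did not pass either (adjusted p = 0.27 and 0.16). Nor did RARA, with a log2 difference of 0.46 (limma adjusted p = 0.054). NFKB1 and SMAD4, at -0.39 and -0.47, also did not pass (limma adjusted p = 0.059 and 0.080). RARA, NFKB1 and SMAD4 were named after their values were seen.

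By distance between values centred on each gene's mean over the 4 libraries, on the log2(TPM + 1) scale, the genes most like TGM2 were DHRS2, a short-chain dehydrogenase (0.54), ANGPTL4, a secreted inhibitor of lipoprotein lipase (0.95), the noncoding RNA AC078923.1 (0.98), the interferon-induced gene IFI27 (1.12) and CSF2 (1.19). The median distance over the 10715 genes compared was 5.22. In the controls DHRS2 was at 0.582 and 0.449 TPM, AC078923.1 at 0.285 and 0.206 TPM and CSF2 at 1.003 and 0.726 TPM. DHRS2, AC078923.1 and CSF2 met the required mean of 5 TPM through the knockout libraries alone, so that they had to differ. With 4 libraries the measure mostly ranks genes by how close their knockout difference is to that of TGM2. ANGPTL4 shared the order of the knockouts with TGM2, at 527 and 836 TPM in knockout 1 and knockout 2, against 35.6 and 36.2 TPM in the controls, whereas IFI27 had the opposite order, at 1056 and 683 TPM in the knockouts, against 16.3 and 12.7 TPM in the controls.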

How the data were processed

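RNA of 786-O cells was extracted with TRIzol and made into mRNA libraries, per the labels' protocols. Each of 4 libraries was assigned to DEK knockout or control, 2 each, by its title. The authors deposited 1 table of TPM, each column of which sums to 1000000. Tools listed in the submitters' processing notes, with no role, are STAR 2.7.8a, featureCounts 2.0.1, cutadapt 1.18 and DESeq2 1.36.0, with hg38 as build. The sources used here do not give the annotation, gene lengths or strand use.

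Genes reaching 1 TPM in 2 or more libraries entered a limma fit (version 3.58.1, R 4.3.3) of log2(TPM + 1) with group as its term, a variance prior following mean expression, and Benjamini-Hochberg adjustment over all 15815 genes at 0.05. An exact permutation test of 2 against 2 reaches p = 0.333 at best and was left out. The procedure was tested on simulated data. The pseudocount of 1 makes differences of low genes smaller than they are. Positions, exon lengths and GC content of the longest transcript are from GENCODE release 29, to which 54390 symbols matched by name and 2184 through a table of symbols. Depth was estimated by taking the most frequent low value of TPM times exon length as 1 read. Of estimated values under 200 reads, 54.0% to 55.9% were whole to within 0.02, so read numbers are approximate.

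The members and lists were chosen with earlier results of these data known, so lists are described by counts and medians without a list test. Named are all members, up to 4 called genes of each list by smallest p (the 2 of smallest p where fewer were called), up to 4 called neighbours of TGM2, the 5 genes nearest to TGM2 among those with a mean of at least 5 TPM, and DEK. Protein comparisons were not made. Promoter windows were those of RefSeq, the first listed where a gene had several, as LOX did. Alternatives covered the pseudocount, the filter, scaling, the variance prior, a replicate block, the threshold, single libraries left out, GC content and chromosome medians. Calls among the neighbours of P4HA1 are not reported here.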

Additional observations from a re-analysis of the deposited data

How the results depend on the processing

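Over 12 alternatives the log2 difference stayed between 4.82 and 5.43 for TGM2, 1.26 and 1.66 for P4HA2, 0.18 and 0.88 for LOXL1, 0.30 and 0.57 for PLOD1 and 0.24 and 0.42 for LOXL2. It ranged from -0.10 to 0.32 for P4HA1 and from -0.16 to 0.43 for PLOD2. The median over the 7 members that passed the filter was 0.41, and it was 0.47 with scaling by the median ratio, 0.56 with chromosome medians removed and between 0.30 and 0.42 with single libraries left out.

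Calls depended far more on the settings. Of all tested genes 1433 were higher and 1371 lower. With no filter on low values 26 were higher and 0 lower by limma (3505 and 3663 at an unadjusted p under 0.05), without a trend in the variance prior 866 and 571, and at an adjusted p under 0.01 80 and 10. With scaling by the median ratio 1588 were higher and 955 lower, and with chromosome medians removed 1715 and 1128. With single libraries left out the counts ranged from 0 to 2443 higher and from 0 to 2846 lower. The 0 came from leaving out control 1 (1632 higher and 1189 lower at an unadjusted p under 0.05) or control 2 (1482 and 1712). There the lone control is assumed to vary like the knockouts.

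Of the 74 tested list genes 22 were higher and 4 lower, against 9.06% higher and 8.67% lower over all tested genes. These counts were 1 and 0 with no filter (38 and 10 at an unadjusted p under 0.05), 12 and 1 without the trend and 3 and 0 at 0.01. The count lower was 2 with median ratio scaling, 2 with quantile normalization and 2 with the GC trend removed. With single libraries left out the ranges were 0 to 36 and 0 to 11. Of the 123 tested neighbours 22 were higher and 10 lower, for which the alternatives were chosen after seeing the data. The counts were 0 and 0 with no filter (33 and 22 at an unadjusted p under 0.05), 10 and 5 without the trend, 1 and 0 at 0.01, and 0 to 33 and 0 to 24 with single libraries left out.

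Across 476 combinations of 32 named genes outside the 9 and an alternative, 318 kept their side of the threshold and their direction, 152 lost the call, 6 gained it and 0 turned direction. Every call among them was lost without control 1 and without control 2, 29 of them with no filter and 27 at 0.01, and 16 without the trend. The cause was not tested. The replicate number as a replicate block left 28 of the 32 on their side, with the COL4A2 call among those lost (adjusted p = 0.058) and SLC23A1 gained (adjusted p = 0.031). Same-numbered libraries deviated with a correlation of 0.099 across genes, and with 2 pairs the numbers are not taken to pair the samples. Depth limits LOX and LOXL4, which had at most about 2 reads.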
